A study of Mus musculus with 32 samples.

Results

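The genes described here code for the proteins that hold epithelial cells together: the claudins Cldn1, Cldn3, Cldn4 and Cldn7, occludin (Ocln), the scaffold Tjp1 (also called ZO-1), the junctional adhesion molecule F11r, the desmosome proteins Dsp and Jup, and the adhesion molecule Epcam. They were chosen by name as tight junction, desmosome and epithelial adhesion genes, with earlier results of these data known. All 10 were found among the 24454 gene IDs of the table, and all 10 passed the filter on low counts. Their RNA was measured in 32 regions cut by laser from female mice (MMTV-PyMT; R26-CBW; K8-CreERT2): 3 of normal mammary gland, 5 of hyperplasia, 8 of adenoma, 9 of carcinoma and 7 of lung metastasis.

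All groups, normal gland included, came from tumour-bearing animals of that one genotype, so no group lacks the oncogene. In these mice the polyoma middle T oncogene is driven by a mouse mammary tumour virus promoter, and a tamoxifen-activated Cre recombinase is driven by the promoter of keratin 8, a filament protein of luminal cells. Tamoxifen (5 mg) given at 5 weeks of age turned on a fluorescent colour from the R26-CBW reporter, and patches of a single colour were cut from 7 µm sections once tumours were large. Normal glands were pooled to gather enough material. Normal 18 is labelled as tumour core, and normal 28 and 30 as collected from several places. Hyperplasia came from the tumour core (3), the tumour border (1) and outside the tumour (1), adenoma from the core (3), the border (3) and outside (2), carcinoma from the core (6) and the border (3), and metastasis from the lung border (4) and the lung centre (3). The study names 3 animals, but which region came from which animal is not labelled. Regions of every lesion stage outnumber the animals, so some share an animal, and every p-value below, being taken over regions, is too small as a statement about animals.

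Tight junctions seal the space between neighbouring epithelial cells. Claudins and occludin form the strands of the seal, F11r helps to place it, and Tjp1 ties the strands to the actin cytoskeleton. Desmosomes anchor keratin filaments at the cell border, where Jup (plakoglobin) binds the desmosomal cadherins and Dsp (desmoplakin) links them to keratin. Epcam is a surface protein of simple epithelia that binds claudins. In the mammary gland these proteins mark the luminal layer that faces the milk space, while desmosomes also join luminal to basal cells.

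Library totals ran from 2688611 to 19585351 counts and detected genes from 10258 to 17667. One symbol-less gene ID held 5.20 to 78.9% of the counts of a library, and 3 libraries had under 11000 detected genes (hyperplasia 22, metastasis 42 and adenoma 51). Levels are CPM, counts scaled to a common TMM-adjusted library size, where TMM is edgeR's correction for differing library composition. All 8 luminal markers had counts in every stage, with summed levels of 5325 to 6400 CPM in normal gland and 2511 to 21128 CPM across the lesions. The regions were not purely epithelial: the 10 fibroblast markers summed to 657 to 3001 CPM in normal gland. In the lesions their sum was 94.6 to 848 CPM (hyperplasia), 29.7 to 1334 (adenoma), 21.4 to 2374 (carcinoma) and 55.7 to 228 (metastasis). The 8 macrophage markers summed to 392 to 2979 CPM in normal gland and 69.1 to 959 CPM across the lesions. The 8 adipocyte markers summed to 81.0 to 723 CPM in normal gland and 0 to 342 CPM across the lesions. Since RNA came from bulk patches, fewer cells of a type and less RNA per cell cannot be told apart in any level below.

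Compared per kilobase of exon, Cldn3 and Epcam were the most abundant of the 10 transcripts. Cldn3 had a median level of 316 CPM per kb over the 32 libraries and Epcam 199.8 CPM per kb. Cldn7, F11r and Jup followed at medians of 37.0, 31.1 and 28.4 CPM per kb, then Cldn4, Cldn1 and Tjp1 at 10.4, 8.19 and 5.53, and Ocln and Dsp at 2.10 and 1.42. Epcam stood above Cldn7 in 31 of 32 libraries and Cldn3 above Epcam in 24. Cldn7 stood above F11r in 17 libraries, F11r above Jup in 16, Cldn4 above Cldn1 in 19 and Ocln above Dsp in 18, so the order within those pairs changed from region to region.

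Epcam, Cldn3 and Jup varied least within stages. The SD of log2(CPM + 1) within stages was 0.53 for Epcam, 0.57 for Cldn3 and 0.77 for Jup, against a median of 1.34 over the 7305 tested genes whose mean reached 20 CPM. Their own means were 478 CPM (Epcam), 430 CPM (Cldn3) and 207 CPM (Jup), and no set of genes of like level was compared. F11r and Tjp1 had SDs of 0.96 and 1.13, Cldn1 and Cldn7 of 1.28 each, and Cldn4, Ocln and Dsp of 1.56, 1.73 and 1.88. From the lowest to the highest library Epcam spanned 4.79-fold and Cldn3 6.81-fold, while Cldn4 spanned 178-fold. Ocln had no count in hyperplasia 22 and metastasis 42, and Dsp none in hyperplasia 33 and metastasis 42. A count of 0 there allows levels of up to 0.341 CPM (hyperplasia 22), 0.628 CPM (hyperplasia 33) and 0.811 CPM (metastasis 42), taking 3 counts as the limit, which covers counting error only.

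**Figure D1:**
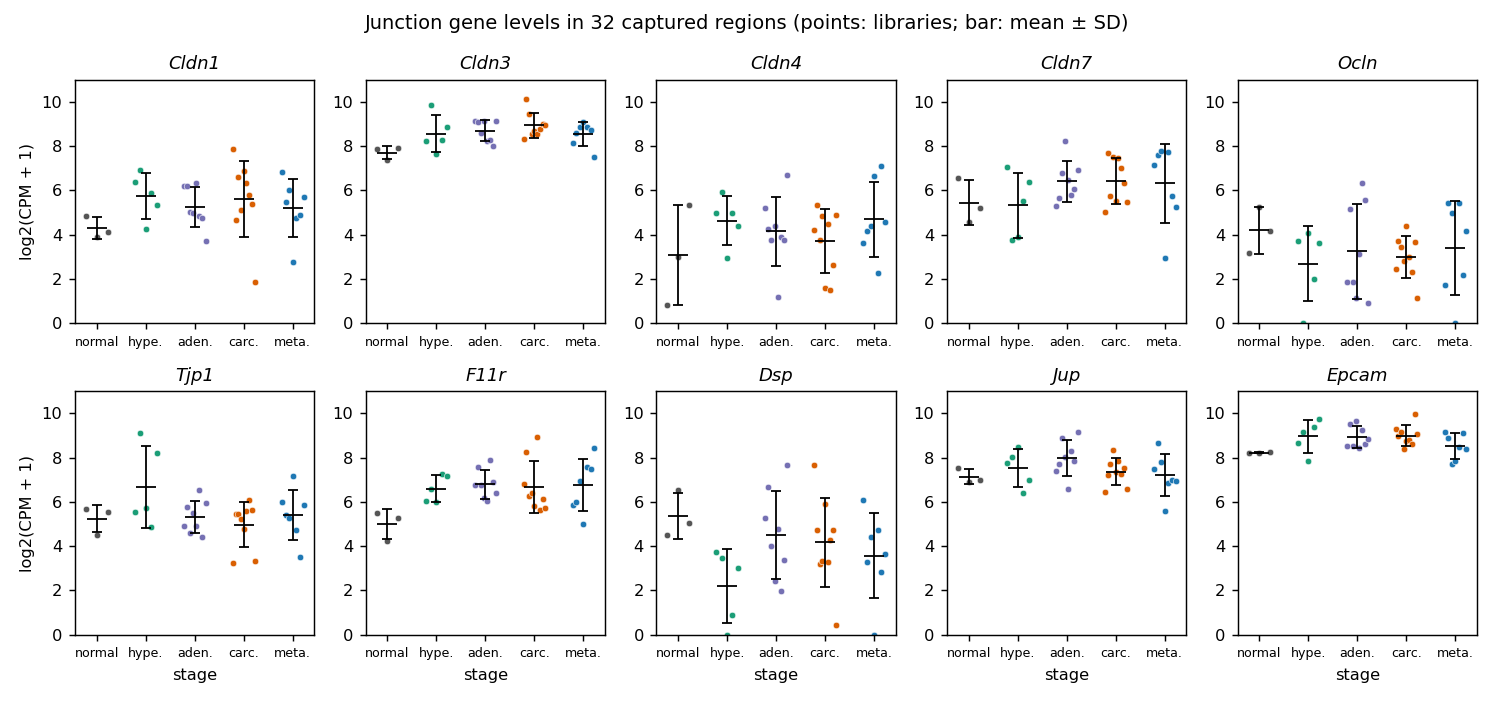
Level of each junction gene, as log2(CPM + 1), in the 32 regions by stage (hype., hyperplasia; aden., adenoma; carc., carcinoma; meta., metastasis). Points are libraries and bars are the mean ± SD. Epcam and Cldn3 lie high with less spread than the other genes, and Dsp, Ocln and Cldn4 spread most within stages.

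Of the 10 members, 1 passed the test for any difference between the 5 stages at an adjusted p of 0.05. This test is edgeR's quasi-likelihood F test with Benjamini-Hochberg adjustment over 19907 genes, of which 3.58% passed. The member was Tjp1 (chr7:65296165-65527850, minus strand, GRCm38, the assembly also called mm10), with an adjusted p of 0.0408. Tjp1 stood at 49.6, 22.1 and 45.6 CPM in normal 18, 28 and 30, and at 45.3, 28.4, 553, 52.6 and 292 CPM in hyperplasia 21, 44, 22, 33 and 46. Its lowest, median and highest levels were 20.0, 36.7 and 92.2 CPM in adenoma, 8.47, 42.3 and 67.0 in carcinoma and 10.2, 41.3 and 144 in metastasis. Thus 2 hyperplasia libraries stood far above all 30 others, and the other 3 hyperplasia libraries lay within the range of adenoma.

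The call for Tjp1 rested on those libraries. Without hyperplasia 22, the library with the fewest detected genes, the adjusted p was 0.496, and without hyperplasia 46 it was 0.1001. It was 0.388 without the 3 libraries of few detected genes and 0.246 with detected genes as a covariate (both by edgeR). Leaving out adenoma 36 gave 0.0514 and carcinoma 37 gave 0.0555, and over all alternatives the adjusted p ran from 0.0189 to 0.496. Whether the low gene number of hyperplasia 22 has a part in its Tjp1 level was not tested.

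For the other 9 members the adjusted p of the same test was 0.315 for Cldn3, 0.3197 for F11r, 0.403 for Dsp, 0.474 for Epcam, 0.517 for Jup, 0.526 for Cldn1, 0.664 for Cldn7, 0.757 for Cldn4 and 0.801 for Ocln. No member passed edgeR's test in any of the 9 comparisons of 2 groups. At an unadjusted p under 0.05, edgeR had 4 members in hyperplasia against normal gland (12.4% of all tested genes), 2 in adenoma against normal (13.1%) and 4 in carcinoma against normal (8.17%). It had 2 members in adenoma against hyperplasia (14.8% of genes), 0 in carcinoma against adenoma (12.6%) and 0 in metastasis against carcinoma (10.9%). Each comparison of positions had 1 member, with 5.63% of genes in carcinoma, 9.45% in adenoma and 8.71% in metastasis. A count of 1 or 2 of 10 members is near these shares. DESeq2, a second count model, called 1 member in 1 of the 9 comparisons, which was Tjp1 in adenoma against hyperplasia. In all 9 comparisons DESeq2 called many more genes than edgeR, as counted in the last section, so this 1 call is not read as a result about the members.

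With TMM scaling, F11r, Cldn3 and Epcam exceeded every normal library most often, in 28, 27 and 26 of 29 lesion libraries. Whether whole stages kept clear of normal gland depended on the scaling, as given below with the shares over all genes. By position, Dsp (core and border) and F11r (lung border and centre) were the members whose groups did not overlap with TMM scaling. Their promoters are printed here, with that of Tjp1, as the stretches from which these members are transcribed. Each runs from 250 bases before to 50 after a RefSeq start site on GRCm38.p6, 5′ to 3′ on the gene's own strand, and capitals mark CACCTG or its reverse complement CAGGTG, the E-box that the repressors of the SNAI and ZEB families bind.
Epcam promoter (chr17:87635729-87636028, plus strand): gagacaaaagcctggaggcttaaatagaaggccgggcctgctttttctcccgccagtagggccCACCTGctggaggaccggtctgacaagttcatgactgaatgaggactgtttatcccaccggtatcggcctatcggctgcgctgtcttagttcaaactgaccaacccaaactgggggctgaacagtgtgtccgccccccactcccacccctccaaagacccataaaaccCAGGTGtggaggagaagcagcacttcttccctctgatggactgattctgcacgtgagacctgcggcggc
Cldn3 promoter (chr5:134985964-134986263, plus strand): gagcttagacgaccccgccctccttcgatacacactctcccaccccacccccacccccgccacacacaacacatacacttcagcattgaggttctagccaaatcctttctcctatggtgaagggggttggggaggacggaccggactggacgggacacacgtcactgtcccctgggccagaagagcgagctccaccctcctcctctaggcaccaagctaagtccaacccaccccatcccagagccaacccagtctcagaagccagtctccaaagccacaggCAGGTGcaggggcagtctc
F11r promoter (chr1:171437311-171437610, plus strand): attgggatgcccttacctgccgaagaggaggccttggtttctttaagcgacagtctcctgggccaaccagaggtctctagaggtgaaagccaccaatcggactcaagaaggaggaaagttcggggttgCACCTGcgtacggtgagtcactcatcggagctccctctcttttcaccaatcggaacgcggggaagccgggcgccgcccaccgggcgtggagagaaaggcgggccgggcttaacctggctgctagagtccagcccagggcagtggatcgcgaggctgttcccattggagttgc
Dsp promoter (chr13:38151044-38151343, plus strand): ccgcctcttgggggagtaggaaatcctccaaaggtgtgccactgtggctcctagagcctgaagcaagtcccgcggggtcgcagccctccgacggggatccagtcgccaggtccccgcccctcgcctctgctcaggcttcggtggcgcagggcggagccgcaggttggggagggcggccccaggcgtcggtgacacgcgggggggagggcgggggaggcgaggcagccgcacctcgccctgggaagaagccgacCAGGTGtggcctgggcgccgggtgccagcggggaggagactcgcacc
Tjp1 promoter (chr7:65371195-65371494, minus strand): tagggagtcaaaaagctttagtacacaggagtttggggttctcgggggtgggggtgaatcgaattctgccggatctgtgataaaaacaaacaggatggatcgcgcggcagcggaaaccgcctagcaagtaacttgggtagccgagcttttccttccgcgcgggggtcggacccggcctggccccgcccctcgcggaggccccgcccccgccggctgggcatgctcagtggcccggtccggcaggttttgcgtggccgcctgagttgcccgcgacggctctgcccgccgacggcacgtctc

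All 10 members matched the RefSeq table, with 12 windows. Either strand of the E-box letters CACCTG occurred in windows of 7 of the 10 members and in 20.2% of all 32851 windows. The printed windows hold it at offsets of -187 and -19 bases from the start site in Epcam, 32 in Cldn3, -122 in F11r and 4 in Dsp, and the Tjp1 window, which lies at an inner start site of that gene, has no match. GC box letters (GGGCGG) occurred in 10 of 10 members against 35.7% of all windows, and AP-2 letters (GCCNNNGGC) in 5 members against 16.6%. Letters of a Grainyhead-like site (AACCGGTT) occurred in 0 members against 0.146%, and TATAAA in 0 against 13.6%. Both strands were searched and matches of different motifs could overlap, as in Cldn3, where an AP-2 match runs into the E-box. Member windows had a median GC content of 60.8%, against 52.7% over all windows. A match here is a description of the letters only.

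F11r (chr1:171437561-171464593, plus strand), an immunoglobulin-type adhesion molecule of tight junctions, was higher than every normal library in 28 of the 29 lesion libraries. Its levels were 43.9, 17.8 and 37.3 CPM in normal 18, 28 and 30, and 65.4, 151, 95.4, 62.4 and 142 CPM in hyperplasia 21, 44, 22, 33 and 46. The lowest, median and highest levels were 64.8, 108 and 238 CPM in adenoma, 48.02, 75.6 and 488 in carcinoma and 31.3, 123 and 344 in metastasis. Hyperplasia, adenoma and carcinoma therefore did not overlap normal gland, and the 1 lesion library within the normal range was metastasis 42. The fitted differences did not pass the test: log2 fold change 1.89 ± 0.74 (SE) in adenoma (adjusted p = 0.221) and 2.12 ± 0.74 in carcinoma (adjusted p = 0.319), by edgeR's quasi-likelihood test over regions that share animals. The spread in carcinoma exceeded the mean (143 ± 152 CPM, SD, n = 9), and carcinoma 39 and carcinoma 07 held 488 and 306 CPM.

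Epcam (chr17:87635979-87651127, plus strand) varied least in normal gland. It stood at 293, 298 and 307 CPM there, a mean of 299 ± 7.07 CPM (SD, n = 3), and at 411, 675, 566, 229 and 850.0 CPM in hyperplasia 21, 44, 22, 33 and 46. The lowest, median and highest levels were 342, 427 and 811 CPM in adenoma, 334, 509.7 and 992 in carcinoma and 207, 355 and 566 in metastasis. All adenoma and carcinoma libraries stood above the 3 normal ones, as did 4 of 5 hyperplasia libraries, while metastasis spread to both sides. In all, 26 of 29 lesion libraries were above every normal library and 3 were below (hyperplasia 33 and 2 metastases).

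Cldn3 (chr5:134986214-134987476, plus strand), a strand-forming claudin, followed a like course. It stood at 232, 163 and 239 CPM in normal 18, 28 and 30, and at 302, 312, 915, 196 and 458 CPM in hyperplasia 21, 44, 22, 33 and 46. The lowest, median and highest levels were 253, 465 and 559 CPM in adenoma, 317, 443 and 1110.1 in carcinoma and 182, 428 and 551 in metastasis. In 27 of 29 lesion libraries Cldn3 was above every normal library, the exceptions being hyperplasia 33 and metastasis 58. Its log2 fold change was 1.05 ± 0.47 in hyperplasia (adjusted p = 0.356), 1.04 ± 0.45 in adenoma (adjusted p = 0.297) and 1.31 ± 0.45 in carcinoma (adjusted p = 0.299), by edgeR's quasi-likelihood test. None of these passed. Cldn3 shares exon sequence with Wbscr25 on the opposite strand, and since the strand setting of the counting is not given, reads of the pair cannot be told apart.

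Against these, Jup, Cldn1 and Cldn7 had higher means in most lesion stages but overlapped normal gland in each. Jup (chr11:100368856-100397839, minus strand) was at 185, 118 and 125 CPM in the normal libraries. Its lesion means were 210.4 ± 111, 290.3 ± 158, 178 ± 72.9 and 174 ± 116 CPM from hyperplasia to metastasis (SD, n = 5, 8, 9 and 7). Adenoma 51 had the highest level (567 CPM) and metastasis 42 the lowest (47.6 CPM), both libraries of few detected genes. Cldn1 (chr16:26356645-26371839, minus strand), a claudin that tightens the seal, was at 27.8, 14.0 and 16.4 CPM in normal gland, and 22 of 29 lesion libraries were higher than all 3. Its lesion means were 63.5 ± 40.03, 43.9 ± 26.3, 76.1 ± 70.1 and 47.3 ± 35.0 CPM from hyperplasia to metastasis. Cldn7 (chr11:69964779-69967886, plus strand), which binds Epcam, was at 92.3, 22.6 and 35.9 CPM in normal gland, and 12 of 29 lesion libraries exceeded all 3. Its lesion means were 57.1 ± 50.1, 103 ± 83.0, 105 ± 68.7 and 123 ± 89.4 CPM in the same order.

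Ocln, Cldn4 and Dsp ran in no common direction. Ocln (chr13:100496504-100552718, minus strand) was at 7.85, 37.4 and 16.8 CPM in normal gland, and 15 of 29 lesion libraries were below all 3 and 4 above. Its lesion means were 8.45 ± 6.70 (hyperplasia), 21.9 ± 28.9, 8.44 ± 5.63 and 19.6 ± 18.6 CPM (metastasis). Adenoma 48 reached 79.0 CPM while 5 of 8 adenoma libraries stood below every normal one. Cldn4 (chr5:134945123-134946934, minus strand) covered 0.776 to 39.6 CPM in normal gland alone, and 25 of 29 lesion libraries fell inside that range. The 4 above it were hyperplasia 22 at 59.3 CPM, adenoma 51 at 104, metastasis 57 at 138 and metastasis 42 at 100.0 CPM, of which 3 are the libraries of few detected genes. Cldn4 and Cldn3 lie 39279 bases apart with 0 annotated genes between them.

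Dsp (chr13:38151294-38198577, plus strand) stood at 21.7, 90.9 and 32.01 CPM in normal 18, 28 and 30 and at 12.3, 0.855, 10.0, 0 and 7.00 CPM in hyperplasia 21, 44, 22, 33 and 46. All 5 hyperplasia libraries were thus below all 3 normal ones, and the fitted log2 fold change was -2.99 ± 1.36, with an adjusted p of 0.3602 by edgeR. The lowest, median and highest levels were 2.88, 20.6 and 204 CPM in adenoma, 0.337, 18.3 and 202 in carcinoma and 0, 11.4 and 67.4 in metastasis. In all, 19 of 29 lesion libraries were below every normal library and 3 above. Dsp shares exon sequence with Gm10129 on the opposite strand, so reads of this pair cannot be told apart either. The 10 basal and myoepithelial markers, whose cells also carry desmosomes, summed to 199.6 to 288 CPM in normal gland and to 20.6 to 382 CPM in hyperplasia. Their part in the Dsp difference was not tested.

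In hyperplasia against normal gland, the fitted log2 fold change was above 0 for 8 of 10 members and below for 2 (7 and 3 under DESeq2's size factors, a scaling by the median ratio), with a median of 0.88 against 0 over all tested genes. Of all tested genes 49.5% were above 0, and by edgeR 0% passed. F11r was the 1 member whose hyperplasia libraries were all higher than the normal ones, a pattern found in 1.35% of all genes, and Dsp the 1 whose libraries were all lower, found in 3.77%. The smallest p among members was that of Tjp1, with a log2 fold change of 2.31 ± 0.90 (adjusted p = 0.288, edgeR).

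In adenoma against normal gland, all 10 members had a fitted log2 fold change above 0, from 0.05 to 1.89. It was 7 of 10 under DESeq2's size factors, with the covariate or without the 3 libraries of few detected genes. With no filter it was 8. The member median was 0.90 against 0.07 over all genes, of which 51.6% were above 0. By edgeR 0.00502% of genes passed. Cldn3, F11r and Epcam did not overlap normal gland and were higher, as were 1.02% of all genes, and 0 members were wholly lower, against 2.08%. Under DESeq2's size factors F11r alone kept clear of the normal libraries.

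In carcinoma against normal gland, 7 members had a fitted log2 fold change above 0 and 3 below, which became 5 and 5 under DESeq2's size factors. The member median was 0.58 against 0.10 over all genes, of which 52.7% were above 0. By edgeR 0.00502% of genes passed here too. Cldn3, F11r and Epcam again had no overlap and were higher, against 0.894% of genes, and 0 members were wholly lower, against 1.25%. With DESeq2's size factors 0 members kept clear. These 3 comparisons share the same normal libraries, so their likeness is no separate support.

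The scaling moved all genes together. DESeq2's size factors took the median log2 fold change of all genes to -0.35 in hyperplasia, -0.30 in adenoma and -0.31 in carcinoma against normal. Measured from that median, the members' median was 0.88, 0.83 and 0.48 with TMM and 0.72, 0.78 and 0.45 with DESeq2's size factors. Adjusting for detected genes in the fit lowered this distance to 0.40, 0.50 and 0.32. Dropping hyperplasia 22, adenoma 51 and metastasis 42 gave 0.51, 0.71 and 0.46. Normal 18, 28 and 30 had 17129, 16045 and 17294 detected genes. Pearson's r of member level with detected genes ran from -0.43 (Cldn3) to 0.43 (Ocln), with -0.36 for Epcam and 0.06 for F11r. The cause of the lower distance was not tested.

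**Figure D2:**
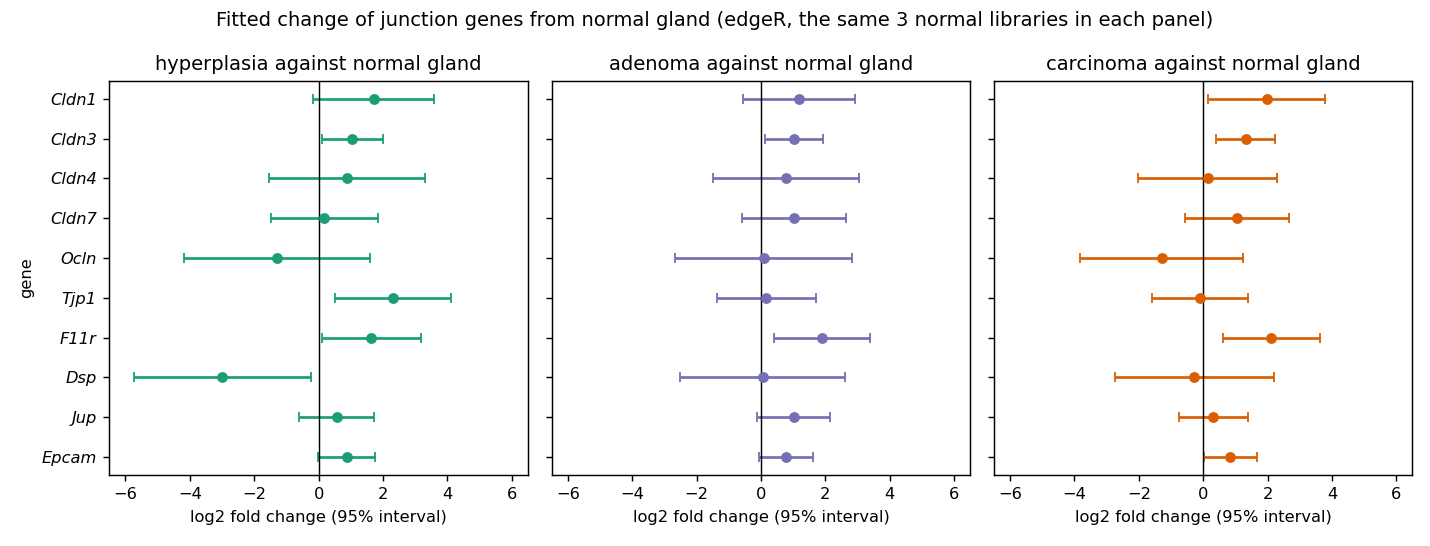
Fitted log2 fold change of each junction gene from normal gland (edgeR, TMM scaling) in hyperplasia, adenoma and carcinoma, with 95% intervals as bars. Intervals for Cldn3 and F11r lie above 0 in all 3 panels before adjustment, the Dsp interval lies below 0 in hyperplasia, and no member passed after adjustment over all genes.

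The keratins of the luminal layer had higher means in every lesion stage too. Krt8, whose promoter drives the Cre, and its partner Krt18 summed to 615 ± 239 CPM in normal gland (SD, n = 3). In the lesions, from hyperplasia on, the sums were 1187 ± 330.0, 1428 ± 421, 1399.7 ± 587 and 1103 ± 255.5 CPM (SD, n = 5, 8, 9 and 7). The 10 members summed to a mean of 880.1 CPM in normal gland, and to 1655, 1648, 1667 and 1408.5 CPM in the lesion stages in the same order. Across the 32 libraries, Pearson's r of log2(CPM + 1) with Krt8 was 0.64 for Epcam, 0.56 for Cldn3, 0.40 for Cldn4, 0.34 for F11r, -0.31 for Ocln and -0.05 for Dsp, and between 0.13 and 0.20 for the other 4 members. These libraries share animals, and each r also takes in differences of depth and of cell mixture.

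Set against the keratins of the same library, no member stood clear above normal gland. This ratio was added after the data were seen. Since the keratin sum had a higher mean in every lesion stage, a gene of unchanged level falls on this ratio. The share of all genes that stood above or below normal gland on it was not computed. Epcam had a mean of 53.6% of the Krt8 plus Krt18 level in normal gland, where its libraries ran from 35.2 to 74.7%. Its means were 44.2, 37.3, 40.5 and 35.8% from hyperplasia to metastasis, and 0 lesion libraries were above every normal one. Cldn3 had stage means between 31.4% (adenoma) and 40.3% (carcinoma), with 36.2% in normal gland. Its libraries spread more widely, from 27.4 to 40.8% in normal gland, 21.4 to 71.2% in hyperplasia and 19.5 to 70.5% in carcinoma. F11r averaged 5.46% in normal gland and 8.52, 9.09, 12.7 and 13.9% in the lesion stages and exceeded every normal library in 3 of 5 hyperplasia, 5 of 8 adenoma, 3 of 9 carcinoma and 4 of 7 metastasis libraries. It was below every normal library in 2 adenoma, 3 carcinoma and 1 metastasis libraries.

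Dsp was the member most often below normal gland on the keratin scale, on which no test was run and no share over all genes was taken. A lower ratio can come from more keratin RNA as well as from less of the member, so the counts below do not show a loss of the member. Dsp had means of 10.1, 0.510, 3.26, 2.98 and 1.74% from normal gland to metastasis. Every hyperplasia library was below every normal one, as were 5 of 8 adenoma, 7 of 9 carcinoma and 6 of 7 metastasis libraries. Ocln means were 4.22, 0.882, 1.66, 0.678 and 1.88%, and 4 of 5 hyperplasia, 5 of 8 adenoma, 8 of 9 carcinoma and 3 of 7 metastasis libraries were below all 3 normal ones. Jup means were 25.4, 21.4, 20.2, 14.5 and 17.0%, with 2 of 5 hyperplasia, 2 of 8 adenoma, 6 of 9 carcinoma and 3 of 7 metastasis libraries below every normal one and 1 above in each stage but carcinoma. Tjp1 means were 6.46, 15.3, 3.17, 2.85 and 5.46%, and 2 of 5 hyperplasia, 7 of 8 adenoma, 7 of 9 carcinoma and 5 of 7 metastasis libraries were below every normal one, while 2 hyperplasia and 1 metastasis libraries were above. The normal values spread widely, with Dsp at 3.67 to 22.8% and Ocln at 1.37 to 9.36%.

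**Figure D3:**
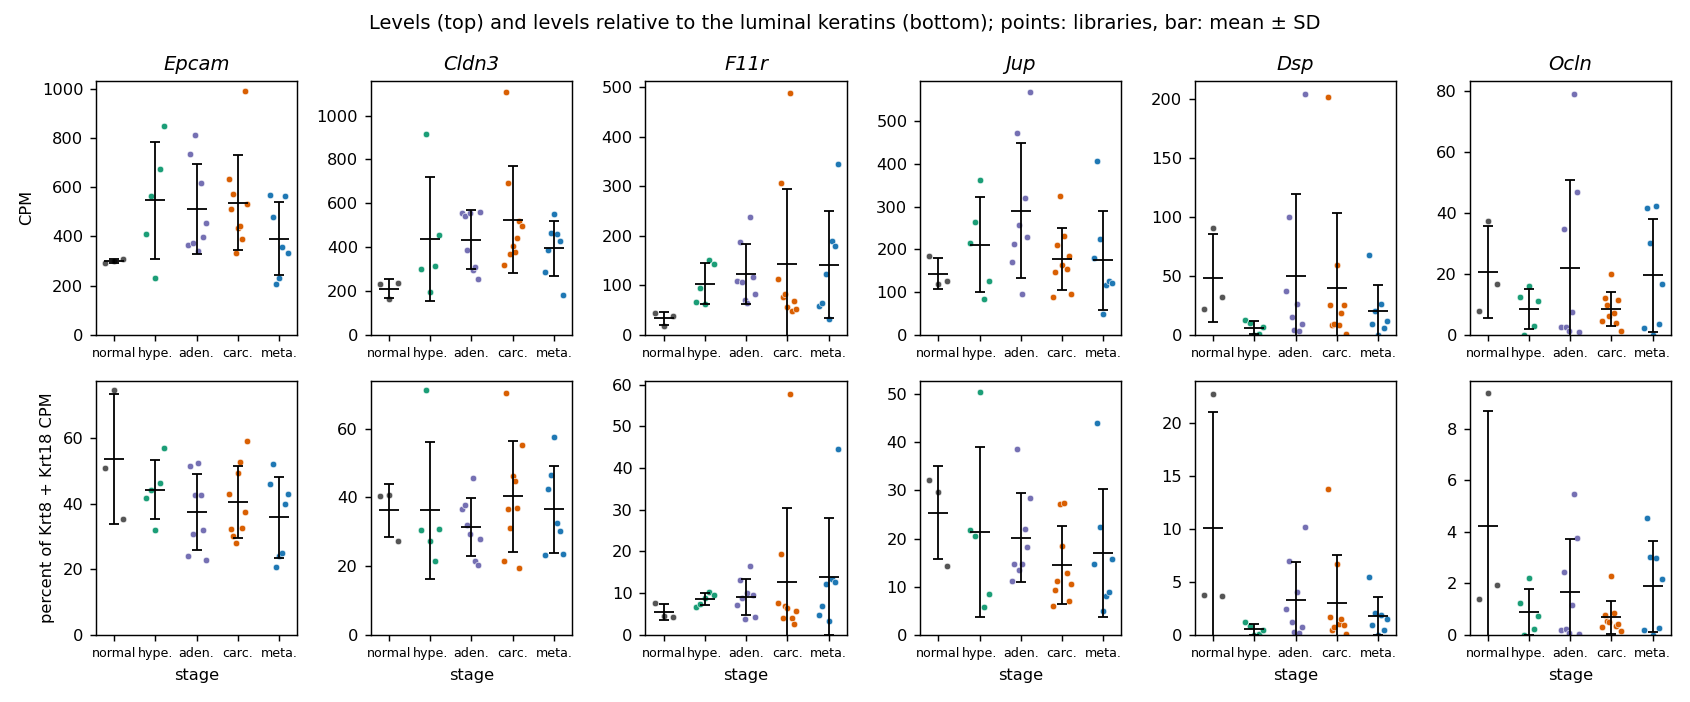
Levels of 6 junction genes in CPM (top row) and as a percentage of the summed Krt8 and Krt18 level of the same library (bottom row), by stage. Points are libraries, bars are the mean ± SD, cut at 0. Epcam lies higher in most lesions than in normal gland in the top row and lower on average in the bottom row, while Dsp in hyperplasia lies below normal gland in both.

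Between lesion stages, members ran in both directions. In adenoma against hyperplasia 5 members had log2 fold changes above 0 and 5 below (6 and 4 under DESeq2's size factors), and edgeR passed 0% of genes. Tjp1 had -2.15 ± 0.62 (adjusted p = 0.166, edgeR), for which DESeq2 gave an adjusted p of 0.0280, and over all alternatives the adjusted p ran from 0.0280 to 0.999. Without hyperplasia 22 the Tjp1 log2 fold change was -1.21. Dsp had 3.04 ± 1.22 (adjusted p = 0.222, edgeR), with 5 of 8 adenoma libraries above every hyperplasia library. No member was free of overlap, against 0.0703% of all genes.

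In carcinoma against adenoma, again 5 members stood above 0 and 5 below, and edgeR passed 0% of genes. Jup had the smallest p, with a log2 fold change of -0.71 ± 0.38 (adjusted p = 0.455), and Ocln followed with -1.38 ± 0.98 (adjusted p = 0.661), both by edgeR. The 95% intervals of Epcam (-0.51 to 0.64) and Cldn3 (-0.33 to 0.89) stayed within 1 log2 unit of 0. No member was free of overlap, against 0.0201% of genes.

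In lung metastasis against primary carcinoma, 4 members had log2 fold changes above 0 and 6 below (5 and 5 under DESeq2's size factors), and 0.0151% of genes passed by edgeR. Cldn4 had 1.36 ± 0.80 (adjusted p = 0.597) and Epcam -0.46 ± 0.30 (adjusted p = 0.654), again by edgeR over regions that share animals. For Epcam the 95% interval was -1.06 to 0.14, and for Cldn3 -1.05 to 0.22. F11r and Jup lay nearest to 0, at -0.02 and -0.03, with intervals of -1.01 to 0.97 for F11r and -0.82 to 0.77 for Jup. No member was free of overlap, against 0.0904% of genes. The lung epithelium markers summed to a median of 621 CPM in carcinoma (285 to 2244) and 2113 CPM in metastasis (611 to 5222). The endothelial markers summed to medians of 19.8 and 67.0 CPM. In hyperplasia 46, outside the tumour, 2 of the 10 lung genes had a count, and the sum was still 764 CPM. The lung list is therefore not a measure of lung cells alone. The part of either list in these differences was not tested.

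Position within a tumour was compared where 3 or more regions stood on each side, in a fit with a term per stage and position over 22676 genes. Between core and border, Dsp was the member that differed most, and it was higher in the core in both primary stages. In adenoma Dsp stood at 37.4, 100.3 and 204 CPM in the core (adenoma 24, 25 and 51), at 26.2, 2.88 and 4.45 at the border (adenoma 47, 48 and 36) and at 15.1 and 9.50 outside the tumour (adenoma 34 and 50). In carcinoma it had a lowest, median and highest level of 9.02, 25.5 and 202 CPM in 6 core regions, and 8.25, 8.69 and 0.337 CPM at the border (carcinoma 08, 39 and 55). The groups did not overlap in either stage, but in carcinoma the lowest core region and the highest border region were 9.02 and 8.69 CPM.

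The log2 fold change of Dsp from border to core was 3.36 ± 1.49 in adenoma (adjusted p = 0.514) and 3.30 ± 1.41 in carcinoma (adjusted p = 0.781), by edgeR's quasi-likelihood test over regions that share animals, with 0% of genes passed in both. Over all alternatives it stayed between 2.49 and 4.96 in adenoma and between 2.26 and 3.76 in carcinoma. The ends of these ranges came from leaving out adenoma 51 (2.49), adenoma 47 (4.96), carcinoma 06 (2.26) and carcinoma 39 (3.76). Dsp was the 1 member without overlap in each, against 5.84% of all genes in adenoma and 1.23% in carcinoma. With DESeq2's size factors the carcinoma groups overlapped, and relative to the keratins Dsp overlapped in both stages. Adenoma 51 is a library of few detected genes.

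By their medians, fibroblast and macrophage markers ran opposite to Dsp by position in both stages, and basal markers did so in adenoma. Luminal and adipocyte markers ran the same way as Dsp in both stages. The basal and myoepithelial markers summed to 2.57 to 71.3 CPM in adenoma core and 62.0 to 399 CPM at the adenoma border. In carcinoma they summed to 33.5 to 115 CPM in the core and 28.1 to 266 CPM at the border. Fibroblast markers summed to 29.7 to 133 CPM in adenoma core and 63.2 to 1334 at the border, and to 21.4 to 480.0 CPM in carcinoma core and 185 to 2374 at the border. Macrophage markers had medians of 235 CPM in adenoma core and 373 at the border, and of 249.6 CPM in carcinoma core and 313 at the border, with overlap in both. Their part in the difference was not tested.

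Other members overlapped between core and border in both stages. In carcinoma 7 members were higher in the core and 3 lower (8 and 2 under DESeq2's size factors), and F11r, with the second smallest p, had a log2 fold change of -0.86 ± 0.66 (adjusted p = 0.942, edgeR), which turned to 0.82 without carcinoma 39. In adenoma 6 were higher in the core and 4 lower (5 and 5 under DESeq2's size factors), and Cldn4 had 2.16 ± 1.38 (adjusted p = 0.558, edgeR), with core levels of 35.4, 18.3 and 104 CPM and border levels of 1.27, 13.7 and 20.1 CPM. Cldn3 in the adenoma core was at 558, 541 and 559 CPM, a mean of 552 ± 10.3 (SD, n = 3), and at the border at 298, 309.6 and 558 CPM, so that 2 of 3 border regions were lower and the third lay among the core values.

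In the lung, F11r separated the positions. Its levels were 123, 189, 179.7 and 344 CPM in metastases at the lung border (metastasis 40, 56, 57 and 58) and 58.1, 31.3 and 63.3 CPM in the lung centre (metastasis 02, 42 and 27). All 4 border regions were above all 3 central ones, also relative to the keratins and under each other scaling. The log2 fold change was 2.03 ± 0.78 (adjusted p = 0.558 by edgeR, with 0% of genes passed, and 0.0553 by DESeq2). F11r was the 1 member without overlap, against 2.92% of all genes, and the other members split into 3 higher and 6 lower (2 and 7 under DESeq2's size factors). Tjp1 had -1.34 ± 0.86 (adjusted p = 0.603, edgeR), with metastasis 42 at 144 CPM, and -0.65 without the libraries of few genes. The 10 lung epithelium markers summed to 611 to 4364 CPM at the border and 1155 to 5222 CPM in the centre, and the 8 endothelial markers to 39.1 to 77.5 and 52.4 to 262 CPM, both with overlap. As above, the lung list is not a measure of lung cells alone. The fibroblast markers, at 107 to 228 CPM at the border and 55.7 to 95.9 CPM in the centre, did not overlap and were also higher at the border, and basal markers stood at 123 to 238 against 64.7 to 177 CPM. Their part in the F11r difference was not tested.

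**Figure D4:**
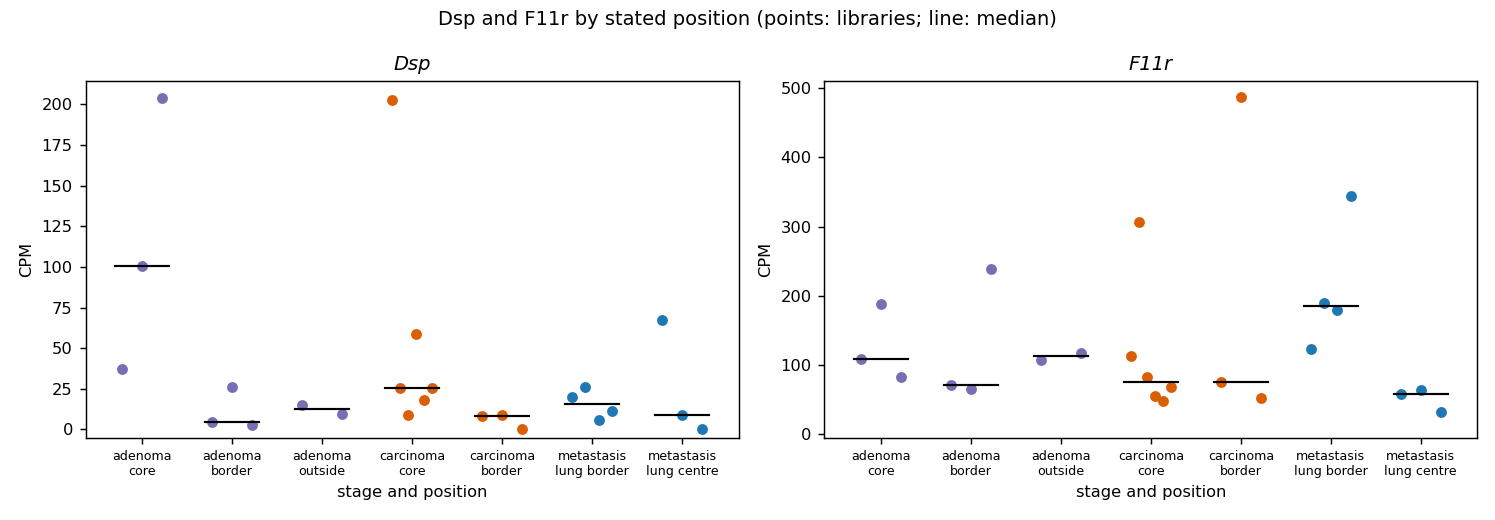
Dsp (left) and F11r (right) in CPM by stated position within adenoma, carcinoma and metastasis. Points are libraries and lines are medians. Dsp is higher in the core than at the border of adenoma and carcinoma, with 9.02 and 8.69 CPM as the nearest carcinoma values, and F11r is higher at the lung border (123 to 344 CPM) than in the lung centre (31.3 to 63.3 CPM).

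Junction genes varied largely apart from each other over the 32 regions. The 45 pairs of members had a median Pearson's r of log2(CPM + 1) of 0.12, from -0.41 for Cldn4 with Ocln to 0.43 for Cldn1 with Dsp. In 34 pairs r was above 0 and in 0 pairs above 0.5. The next highest were Cldn3 with Epcam (0.39), Cldn7 with Jup (0.39) and Cldn3 with Cldn4 (0.36), and within stages the median was 0.08. Within stages 1 pair passed 0.5, Cldn1 with Dsp at 0.62, whose rank correlation over all libraries was 0.25. Both genes stood apart in carcinoma 06, at 236 CPM for Cldn1 and 202 CPM for Dsp. All of these are descriptions over libraries that share animals and differ in depth.

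**Figure D5:**
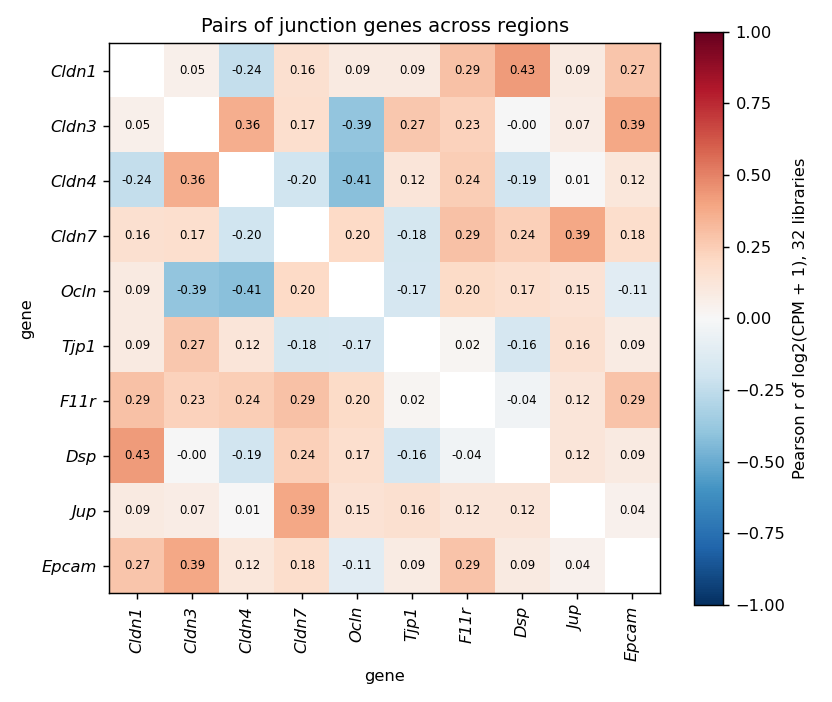
Pearson's r of log2(CPM + 1) over the 32 libraries for each pair of junction genes (red, above 0; blue, below 0). Most cells are pale: r runs from -0.41 (Cldn4 with Ocln) to 0.43 (Cldn1 with Dsp).

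Some genes outside the group followed a member more closely than any other member did. Among 7258 genes whose mean reached 20 CPM and that had a count in 75% of libraries, the nearest to Epcam was Cd9, a tetraspanin of the cell surface (r = 0.71), then Zfp503 (0.70) and Psma1 (0.70). Emid1 (0.79), Wbscr25 (0.71) and Rpl21 (0.67) came nearest to Cldn3, and the second of these is its overlapping neighbour. For F11r they were Tmed2 (0.71), Spint1 (0.66), an inhibitor of surface proteases, and Scand1 (0.66). For Jup the first was Esrp1 (0.73), a splicing factor of epithelial cells, then Mthfd1 (0.69) and Jagn1 (0.65). For Tjp1 they were Hps5 (0.71), Mea1 (0.66) and Slc34a2 (0.65), and for Dsp Prr15l (0.66), AU040320 (0.62) and Osbpl8 (0.61). Cldn7 had Ccdc50 (0.72), Lrpap1 (0.71) and Dhrs3 (0.70), Cldn4 had Ccdc97 (0.71), Actb (0.71) and Psmc3 (0.67), Cldn1 had Narf (0.66), Tpd52l1 (0.65) and Cyb5a (0.65), and Ocln had Rptor (0.67), Anks1 (0.65) and Acbd5 (0.63). These genes were picked as the highest of 7258 values and serve as a description.

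Other genes of the junctions were counted from 6 lists. At an unadjusted p under 0.05 this test over stages had 20.9% of all genes. Of 15 tested tight junction strand genes (18 listed), 1 passed it after adjustment: Marveld3, an occludin relative, with an adjusted p of 0.0408 (edgeR). Marveld3 had a mean of 30.4 ± 15.3 CPM in normal gland, and its lesion means were 199.8 ± 203, 88.7 ± 28.2, 62.8 ± 25.6 and 50.4 ± 23.99 CPM from hyperplasia to metastasis. Its highest level, 547 CPM, was in hyperplasia 22, the library with the highest Tjp1. Of 18 tested scaffold and polarity genes 0 passed, with 1 at an unadjusted p under 0.05. The 2 of smallest p were Mpp5 (adjusted p = 0.175, edgeR), a polarity scaffold whose 5 stage means, in the order of progression, were 21.2, 64.2, 109, 34.6 and 44.9 CPM, and Amotl2 (adjusted p = 0.524, edgeR).

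Of 12 desmosome genes 0 passed, again with 1 at an unadjusted p under 0.05. Perp, a desmosome protein, had means of 32.05, 74.8, 119, 113 and 125 CPM (adjusted p = 0.232, edgeR). Dsg1a, a desmosomal cadherin, had means of 27.3, 23.1, 5.11, 0.916 and 1.91 CPM (adjusted p = 0.2397, edgeR), with counts in 20 of 32 libraries. Adherens junction genes (11 tested) and Epcam partners and proteases (8 tested) had 0 that passed and 0 at an unadjusted p under 0.05. Their smallest p belonged to Ctnna1, the actin-linking alpha-catenin, at means of 113, 83.3, 207, 128 and 109 CPM, and to Cd9, at means of 107, 352, 253, 235 and 197 CPM.

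Among 17 regulators of junction genes, Twist1 passed the test over stages (adjusted p = 0.0473, edgeR), but it had counts in 5 of 32 libraries and a mean of 0.364 CPM, below the level set for naming, and was named after its value was seen. Grhl1, a Grainyhead-like factor of epithelia, had means of 25.8, 154, 117, 61.9 and 58.3 CPM (adjusted p = 0.0857, edgeR). Zeb2, an E-box repressor, had means of 45.3, 38.4, 6.78, 22.4 and 4.32 CPM (adjusted p = 0.231, edgeR), with 168 CPM in hyperplasia 33 and 101 CPM at most in normal gland. Hyperplasia 33 was also the library with the lowest hyperplasia level of Epcam, Cldn3, Cldn1, Cldn4, F11r and Dsp, and the highest of Jup, Ocln and Dsg1a. It had the lowest hyperplasia levels of Krt8 (428 CPM) and Krt18 (289 CPM) too. Relative to these keratins its F11r, at 8.70%, was above every normal library. The part of other cells, or of Zeb2, in the levels of that library was not tested. No gene of the 6 lists passed edgeR's test in any of the 9 comparisons of 2 groups.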

How the data were processed

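RNA of 32 laser-captured regions was made into cDNA with the Geo-seq and Smart-seq2 protocols, and the libraries carry no molecular identifiers. The authors deposited 1 table of read counts per gene ID. STAR and the mm10 genome are named in the submitters' processing notes. No source used here gives the annotation or strand setting of the counting. NCBI gene IDs were matched to symbols through RefSeq GRCm38.p6 (24374 of 24454, 80 without a symbol), and exon lengths came from a GENCODE annotation of GRCm38.

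Counts were tested with edgeR 4.0.16 (R 4.3.3, limma 3.58.1), with TMM scaling, filterByExpr and the quasi-likelihood test. Each fit took all 32 libraries and had 1 term for each stage (19907 genes) or each stage and position (22676 genes). P-values were adjusted by Benjamini-Hochberg at 0.05. Alternatives were DESeq2 1.42.0, its size factors, no filter, a covariate for detected genes, only the libraries compared, and leaving out single libraries, the 3 libraries under 11000 detected genes or the gene ID of highest share. The fit was tested on simulated data. The labels do not call the regions of a group separate animals, so p-values measure the spread between regions.

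Members and lists were chosen with earlier results of these data known. All 10 members were named. Fold changes were named for members past the test, otherwise for the 2 of smallest p, with further ones where groups did not overlap. From each list, genes past the test or else the 2 of smallest p with a mean of at least 5 CPM were named. The 3 most alike genes were taken by Pearson's r.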

Additional observations from a re-analysis of the deposited data

Results flagged for a closer look

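Among 40 sets of values (10 genes in the 4 lesion stages), 8 held a highest library that stood apart from the others by Dixon's test at the 95% level. Chance alone flags about 1 in 20 only where values are normally distributed. The test was run on CPM, which has a long upper tail here, so the 8 flags cannot be set against that rate. Cldn1 was at 236 CPM in carcinoma 06, where the next of the 9 carcinoma libraries had 116 CPM, and Dsp was at 202 CPM in the same library against 58.9 CPM for the next. Cldn3 was at 1110.1 CPM in carcinoma 07, with 692 CPM as the next value. Epcam reached 992 CPM in carcinoma 54, with 631 CPM as the next. In adenoma, Cldn4 stood at 104 CPM in adenoma 51 against 35.4 CPM, and Cldn7 at 295 CPM in adenoma 36 against 120.2 CPM. In metastasis, Tjp1 stood at 144 CPM in metastasis 42 against 62.6 CPM, and Dsp at 67.4 CPM in metastasis 02 against 25.9 CPM. Adenoma 51 and metastasis 42 are both libraries with under 11000 detected genes.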

How the results depend on the processing

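Calls by edgeR depended on the setting. Over the 5 stages 712 genes passed, against 3717 with no filter, 126 without the 3 libraries of few detected genes, 338 by DESeq2, and 479 to 1614 with 1 library left out (1614 without normal 18, 1328 without normal 30, 1092 without normal 28). Members called were 1, 0 with the covariate, 0 without the 3 libraries, and 0 to 1 with 1 library left out. DESeq2 called 452 genes in hyperplasia against normal, 412 in adenoma against normal, 170 in carcinoma against normal, 576 in adenoma against hyperplasia (1 member), 292 in carcinoma against adenoma and 182 in metastasis against carcinoma. By position it called 444 (carcinoma), 1206 (adenoma) and 916 (metastasis).

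By edgeR the count went from 0 to 1 in hyperplasia against normal with only the libraries compared. In adenoma against normal it went from 1 to 6 with DESeq2's size factors, 4 with the covariate, 2 without the 3 libraries and 6 with only the libraries compared. In carcinoma against normal it went from 1 to 2 with DESeq2's size factors, 2 with no filter, 0 with the covariate, 2 without the 3 libraries and 7 with only the libraries compared. Carcinoma against adenoma went from 0 to 168 with the covariate, metastasis against carcinoma from 3 to 5 with no filter, and the positions from 0 to 2 (adenoma) and 1 (metastasis) with no filter. Leaving out 1 library gave 0 to 1 genes in adenoma and carcinoma against normal, carcinoma against adenoma, and the positions of carcinoma and adenoma.

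Counts of members without overlap were recomputed in settings chosen after seeing the data. Members wholly higher were 1 in adenoma and 0 in carcinoma with DESeq2's size factors, and 0 in hyperplasia, adenoma and carcinoma relative to Krt8 plus Krt18. With 1 library left out, hyperplasia had 1 to 4 wholly higher (4 without hyperplasia 33) and 1 to 2 wholly lower (2 without normal 18). By position, carcinoma had 0 with DESeq2's size factors and 0 relative to keratins. Adenoma had 2 with DESeq2's size factors, without the gene ID of highest share or without the 3 libraries, and 1 to 3 with 1 library left out (3 without adenoma 25 or 36). Metastasis had 1 to 3 (3 without metastasis 27). F11r in carcinoma core against border reversed to 0.82 without carcinoma 39, in a range of -1.47 to 0.82 with 1 library left out. The causes were not tested. No paired analysis was possible because each replicate number belongs to 1 library and the groups share none.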
